A study of Mus musculus with 11 samples.

Results

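The tumour necrosis factor (TNF) superfamily comprises signalling ligands, most of them made as trimers on the cell surface, and the receptors that bind them. Its members were the protein-coding genes whose symbol starts with Tnfrsf or Tnfsf and a digit, with Tnf, Cd27, Cd70, Cd40 and Ltbr added and Tnfsf11 left out. A gene was kept when its reads summed to at least 20 over the libraries of a count table. Of 35 genes with such names, 27 passed in at least 1 table. The Bcl11b table held 23 of them, among 13177 genes with that many reads, and the Tcf7 table held all 27, among 14295.

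The libraries were made from mouse thymocytes sorted for the absence of CD24 and of the T-cell receptor beta chain (TCRb) on their surface, a small thymus fraction that leaves out most developing T cells. At postnatal day 0 there were 2 libraries of Bcl11b D/N440K, 2 of Bcl11b +/N440K and 2 of Bcl11b +/+. At postnatal day 7, 3 libraries carried the label Tcf7 F/F:Vav1-Cre and 2 the label Tcf7 +/+. Bcl11b is a zinc-finger transcription factor of T-cell commitment, and the series' title concerns a mutant Bcl11b protein that interferes with its relative Bcl11a. N440K names the mutant allele, and the labels do not define D. Tcf7 encodes TCF1, a transcription factor of early T-cell development. The Vav1 promoter drives Cre throughout blood-forming cells, so a deletion with it is not limited to T cells, and the labels do not say whether the Tcf7 +/+ mice carried Cre. No label says that libraries of 1 group came from separate animals, so p-values measure only the spread between these libraries, which may be technical.

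A TNF ligand clusters its receptor, and what follows depends on the receptor's inner part. Receptors with a death domain can recruit adaptors that lead to cell death or to NF-kB, a family of transcription factors, whereas other receptors bind TRAF adaptors and lead mainly to NF-kB and related pathways. Decoy receptors bind a ligand without passing on a signal. In the thymus the family is known for the costimulation of T cells and innate lymphocytes, and for signals from lymphocytes to epithelial cells that shape the medulla.

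Total counts were 999381 to 1246272 per library in the Bcl11b table and 1273997 to 1842717 in the Tcf7 table. The +/+ libraries of the Tcf7 table stood apart from each other, with a chi-square per degree of freedom over genes of 4.94, against 1.14 to 2.16 for the other replicate pairs. Bcl11b itself had 152 and 204 CPM (counts scaled to a common library size and composition) in D/N440K, 185 and 225 in +/N440K, and 641 and 506 CPM in +/+. Tcf7 had 847, 658 and 694 CPM under the label Tcf7 F/F:Vav1-Cre, against 552 and 594 CPM in Tcf7 +/+. Tcf7 counts were not lower there (log2 fold change 0.35, edgeR adjusted p = 0.0497), so counts over all exons gave no sign of the deletion, and directions drawn from those libraries rest on their label. No library had over 12.5 CPM of Cd24a, which encodes the CD24 the sort selected against. Cd24a was still lower in the other groups than in their own +/+. It had 10.2 and 12.45 CPM in Bcl11b +/+, 2.45 and 0 in +/N440K, and 3.43 and 1.02 CPM in D/N440K. At day 7 it had 9.02 and 11.3 CPM in Tcf7 +/+, against 2.43, 1.70 and 2.225 CPM in Tcf7 F/F:Vav1-Cre. Its log2 fold changes were -2.99 in +/N440K, -2.25 in D/N440K and -2.24 at day 7 (SE 0.77, 0.69 and 0.50, edgeR adjusted p = 0.004876, 0.01857 and 0.002858). Few reads lie behind them: 10 and 15 in Bcl11b +/+ and 16 and 20 in Tcf7 +/+, against 0 to 4 per library in the other groups. All 10 listed markers of T cells and innate lymphocytes had counts in each of the 5 groups, with a summed level of 2569 to 4241 CPM.

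The promoters of the 4 members with the smallest p-values over the 4 comparisons between genotypes are given first, since the results below turn on them. Each is a RefSeq sequence of 300 bases on GRCm38.p6, from 250 bases before to 50 after the annotated start, read 5′ to 3′ on the gene's strand. Capitals mark matches to TGACCA (bound by BCL11A), CTTTGA (bound by TCF and LEF factors), CTTTGT (bound by HMG-box factors, TCF, LEF and SOX among them, and searched for only after the Tnfsf10 sequence had been read) or TGTGGT (bound by RUNX factors), on either strand. The NF-kB consensus was also searched. Tnfsf10 lies on the plus strand at chr3:27316827-27317126, Cd27 on the minus strand at chr6:125236978-125237277, Tnfrsf9 on the plus strand at chr4:150919905-150920204 (the nearer of 2 listed starts) and Tnf on the minus strand at chr17:35201958-35202257.
Tnfsf10: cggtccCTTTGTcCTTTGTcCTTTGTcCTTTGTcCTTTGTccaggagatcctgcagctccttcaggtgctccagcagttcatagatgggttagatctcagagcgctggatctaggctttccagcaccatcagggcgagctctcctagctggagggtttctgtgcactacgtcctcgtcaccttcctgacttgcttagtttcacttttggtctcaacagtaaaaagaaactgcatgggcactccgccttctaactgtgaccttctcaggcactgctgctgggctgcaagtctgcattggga
Cd27: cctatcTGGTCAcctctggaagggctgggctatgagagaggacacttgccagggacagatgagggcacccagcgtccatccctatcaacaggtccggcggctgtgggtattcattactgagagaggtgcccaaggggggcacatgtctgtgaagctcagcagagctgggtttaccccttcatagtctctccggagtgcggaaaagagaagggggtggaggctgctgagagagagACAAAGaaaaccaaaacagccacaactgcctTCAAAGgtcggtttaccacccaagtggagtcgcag
Tnfrsf9: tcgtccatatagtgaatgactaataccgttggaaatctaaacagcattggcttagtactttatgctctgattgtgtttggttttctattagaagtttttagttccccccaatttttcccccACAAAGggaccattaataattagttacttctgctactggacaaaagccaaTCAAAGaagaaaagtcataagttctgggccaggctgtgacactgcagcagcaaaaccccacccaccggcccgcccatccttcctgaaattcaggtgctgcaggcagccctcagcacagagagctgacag
Tnf: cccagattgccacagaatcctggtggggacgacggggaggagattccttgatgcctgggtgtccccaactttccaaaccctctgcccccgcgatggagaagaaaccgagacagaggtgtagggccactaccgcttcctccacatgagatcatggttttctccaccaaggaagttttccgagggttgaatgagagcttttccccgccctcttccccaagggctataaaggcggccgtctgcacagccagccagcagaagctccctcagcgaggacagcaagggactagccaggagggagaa
The Tnfsf10 promoter held 5 copies of CTTTGT, which followed each other at 7-base steps from position -244 to -216. The Cd27 promoter held 1 match each to TGACCA at -244, CTTTGT at -16 and CTTTGA at 16, all on the opposite strand, and the Tnfrsf9 promoter held CTTTGT at -129 and CTTTGA at -79, also on the opposite strand. The Tnf promoter held none of the motifs searched in this window. Of 32851 promoters of the same length, 13.6% held TGACCA, 16.0% CTTTGA, 18.7% CTTTGT, 16.8% TGTGGT and 8.46% the NF-kB consensus. The table held promoters for 21 of the 27 members, 24 sequences in all, of which 2, 4, 8, 4 and 3 held these motifs in that order. A match describes letters, not a bound site.

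The family members with the highest levels are given by group, as a description. Levels of different genes were compared as RPKM, which is CPM divided by the summed exon length in kilobases (GENCODE M21). In D/N440K the highest was Tnfrsf1a, the death-domain receptor for TNF, at 68.1 ± 6.51 RPKM (SD, n = 2), followed by Tnfsf10, which encodes the death ligand TRAIL, at 61.3 ± 1.59 RPKM. Their libraries did not overlap, and the next, Tnfrsf1b, the TNF receptor without a death domain, was at 57.1 ± 0.107 RPKM and overlapped with Cd27. In +/N440K the first 5 were Tnfrsf25, Cd27, Tnfrsf1b, Tnfrsf1a and Tnfsf10, at 72.4, 69.3, 60.9, 55.8 and 52.7 RPKM, and each overlapped with the next. In Bcl11b +/+ Cd27, a costimulatory receptor of T cells and NK cells, was highest at 92.4 ± 8.58 RPKM and Tnfrsf25, the death-domain receptor DR3, came next at 78.4 ± 9.83 RPKM, with no overlap.

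At day 7, Tnfrsf25 and Tnfrsf1b had the highest mean RPKM in both groups. In Tcf7 F/F:Vav1-Cre, Tnfrsf25 stood at 98.0 ± 4.74 RPKM and overlapped with Tnfrsf1b at 92.9 ± 5.18 RPKM, and Tnf came after them at 65.1 ± 6.30 RPKM (SD, n = 3). In Tcf7 +/+ Tnfrsf1b led with 74.1 ± 14.0 RPKM, and Tnfrsf25 was second at 55.1 ± 7.19 RPKM (SD, n = 2). By mean, Cd27 was 16th of 27 in Tcf7 F/F:Vav1-Cre, at 11.5 ± 0.711 RPKM, and behind only these 2 in Tcf7 +/+, at 44.2 ± 3.95 RPKM. In Tcf7 +/+, however, Tnfrsf14 had 51.3 and 27.4 RPKM and overlapped with both Tnfrsf25 and Cd27, and Tnfsf10 overlapped with Cd27. The map of levels by library gives every member on the CPM scale, which compares libraries for 1 gene but not genes of different length.

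**Figure D1:**
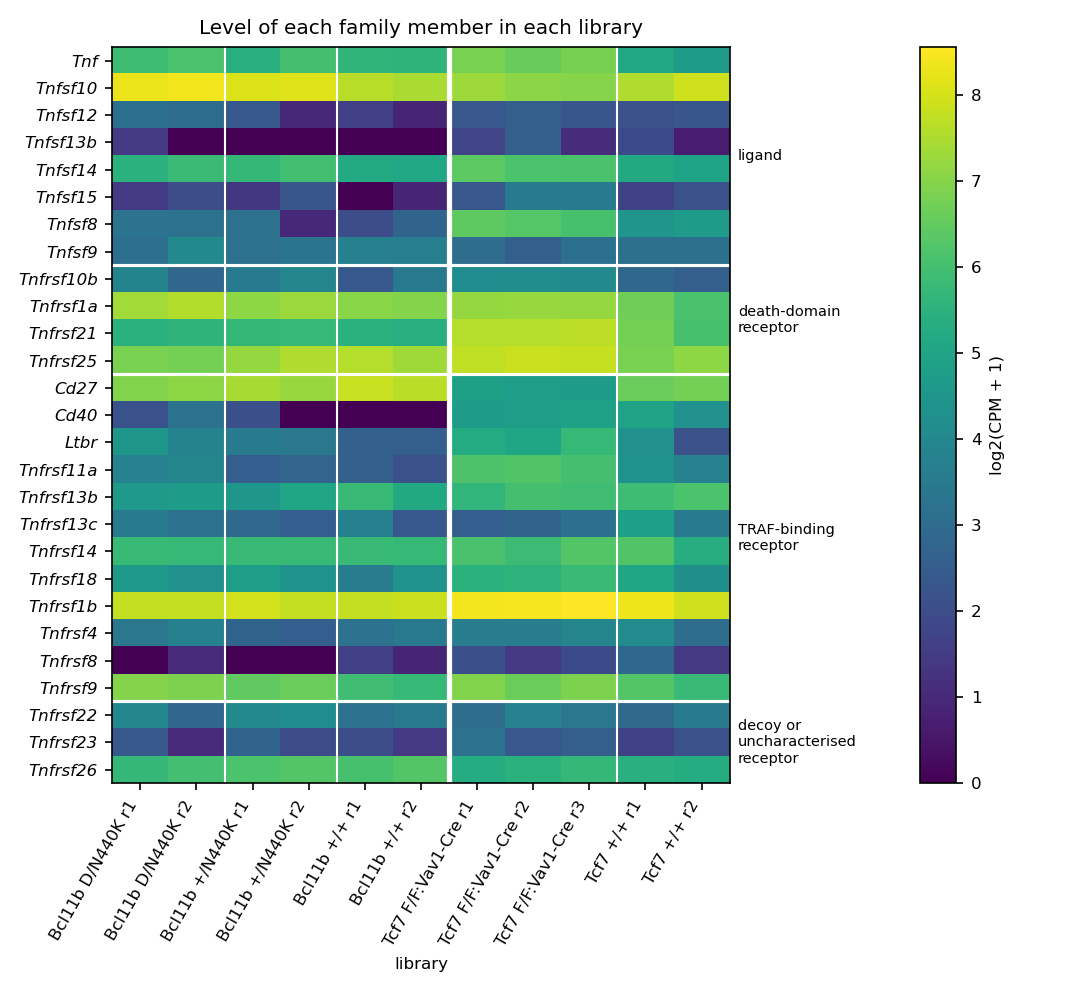
Level of each of the 27 members (rows, grouped by role) in each of the 11 libraries (columns), as the log2 of CPM plus 1. Read along its row, Cd27 is darker in the 3 of Tcf7 F/F:Vav1-Cre than elsewhere.

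At day 0, 8 of the 20 members tested differed between D/N440K and +/+: Tnfsf10, Tnfrsf9, Ltbr, Tnfrsf1a and Tnfrsf11a rose and Cd27, Tnfrsf25 and Tnfrsf13b fell (edgeR adjusted p under 0.05). Of all 10910 genes tested, 6.10% rose and 6.31% fell in D/N440K, against 5 and 3 of the 20 members. The 8 calls became 4 with DESeq2, and 5 without +/+ replicate 2, D/N440K replicate 1 or D/N440K replicate 2. In +/N440K against +/+, 3 members rose (Tnfsf10, Tnfrsf9 and Tnfsf14) and 1 fell (Cd27), where 4.79% of all genes rose and 5.30% fell. These 4 calls became 1 with DESeq2. Of the 4, Cd27 and Tnfsf14 lost their calls without +/+ replicate 1 or +/N440K replicate 2, and Tnfrsf9 and Tnfsf14 without +/+ replicate 2. The members' median log2 fold change was 0.23 in D/N440K and 0.16 in +/N440K, against 0.00139 and 0.00174 for all genes tested. Both comparisons use the same +/+ libraries. The 20 had passed a filter on low counts, which Tnfsf8, Tnfsf12 and Tnfrsf23 had not, so these counts are not over all 23 members. In such bulk samples, fewer cells of a type and less RNA per cell cannot be told apart.

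**Figure D2:**
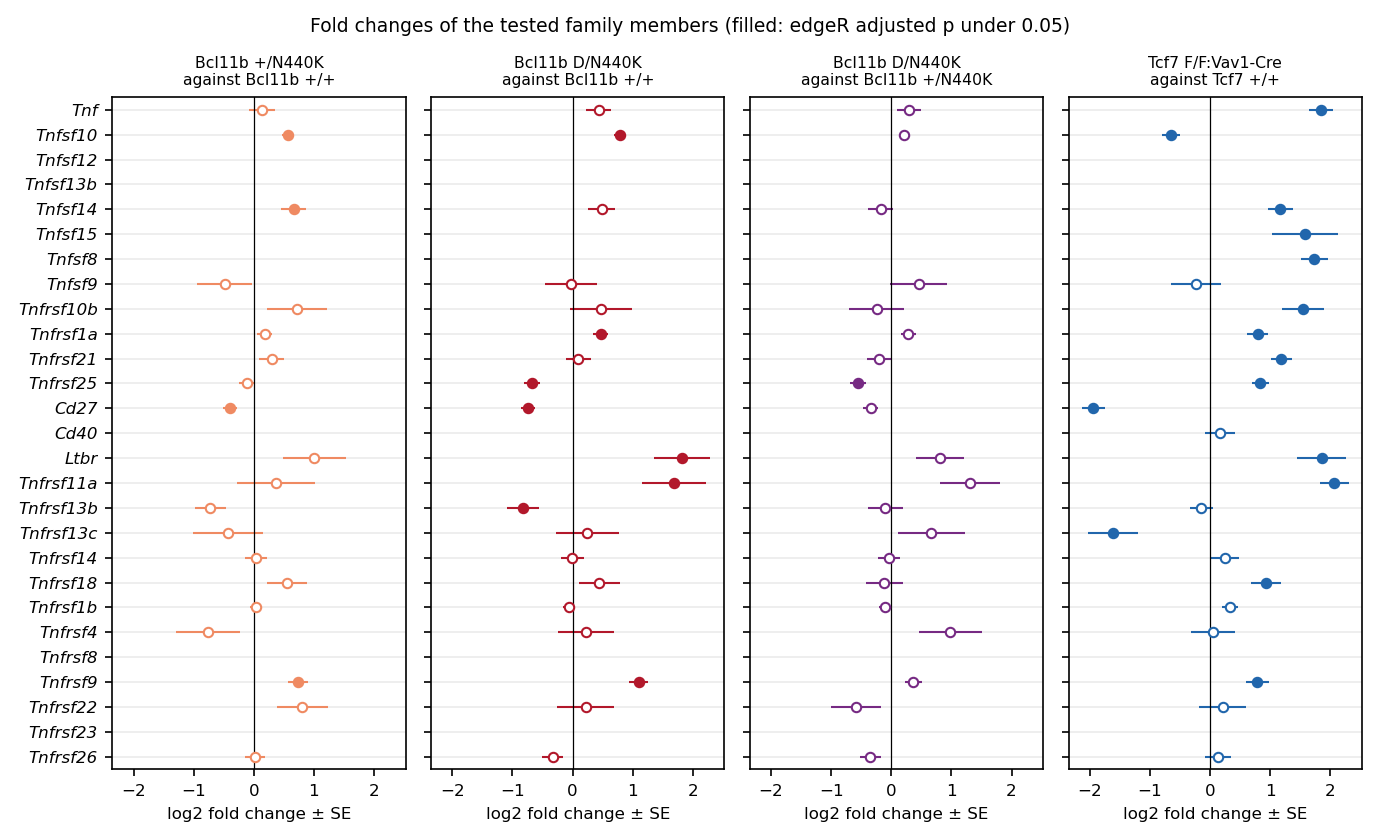
Log2 fold change ± SE of each member tested, in the 4 comparisons, with filled symbols for edgeR adjusted p under 0.05. Tnfsf10 lies right of 0 in both Bcl11b mutants and left of 0 in Tcf7 F/F:Vav1-Cre, and Cd27 lies left of 0 in all 3 comparisons with +/+.

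Among the ligands, Tnfsf10 had 317 and 329 CPM in D/N440K, 274 and 281 in +/N440K, and 197 and 178 CPM in +/+. The groups did not overlap, and both mutant groups lay above +/+. Tnfsf10 was 1.73-fold higher in D/N440K (log2 fold change 0.79, SE 0.10, edgeR adjusted p = 1.25e-07) and 1.49-fold higher in +/N440K (0.57, SE 0.10, edgeR adjusted p = 8.793e-05). Tnfsf14, which encodes LIGHT, a ligand of the receptors encoded by Tnfrsf14 and Ltbr, had 43.7 and 56.0 CPM in D/N440K, 51.4 and 61.2 in +/N440K, and 36.8 and 34.0 CPM in +/+. Each mutant library was above both +/+ libraries, but only +/N440K passed the test (log2 fold change 0.66, SE 0.21, edgeR adjusted p = 0.03926). That call was lost with DESeq2 (adjusted p = 0.5379), without the filter (edgeR adjusted p = 0.05933), and without +/+ replicate 1, +/+ replicate 2 or +/N440K replicate 2 (edgeR adjusted p = 0.09763, 0.2453 and 0.21). In D/N440K its log2 fold change was 0.48 (SE 0.22, edgeR adjusted p = 0.1749).

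Tnf, which encodes the inflammatory cytokine the family is named for, had 58.2 and 69.2 CPM in D/N440K, 40.8 and 64.2 in +/N440K, and 47.1 and 46.5 CPM in +/+. It did not pass the test in either mutant, with log2 fold changes of 0.44 (edgeR adjusted p = 0.1882) in D/N440K and 0.14 (0.8043) in +/N440K. The 3 other ligands with at least 20 reads, Tnfsf8, Tnfsf9 and Tnfsf12, lay between 0.830 and 16.3 CPM per library. Summed over the 6 ligands the level was 443 and 486 CPM in D/N440K, 387 and 418 in +/N440K, and 299 and 277 CPM in +/+, and Tnfsf10 made up most of each sum. In the same order, the TRAF-binding receptors summed to 620 and 614, 642 and 595, and 656 and 619 CPM. The death-domain receptors summed to 335 and 350, 344 and 403, and 372 and 338 CPM. Both of these sums overlapped between groups. The decoy or little-known receptors summed to 70.2 and 70.2, 89.8 and 96.7, and 77.8 and 87.2 CPM, without overlap.

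Of the death-domain receptors, Tnfrsf1a and Tnfrsf25 moved in opposite directions in D/N440K. Tnfrsf1a had 164 and 188 CPM in D/N440K, 137 and 152 in +/N440K, and 131 and 124 CPM in +/+. Its groups did not overlap, and it was 1.38-fold higher in D/N440K than in +/+ (log2 fold change 0.47, SE 0.125, edgeR adjusted p = 0.007524), a call lost with DESeq2 (adjusted p = 0.2175), without +/+ replicate 2 (edgeR adjusted p = 0.1024) and without D/N440K replicate 2 (0.1452). Tnfrsf25 had 113 and 109 CPM in D/N440K, 145 and 185 in +/N440K, and 194 and 163 CPM in +/+. The D/N440K libraries lay below all others, and +/N440K overlapped with +/+. Tnfrsf25 was 1.60-fold lower in D/N440K than in +/+ (log2 fold change -0.67, SE 0.135, edgeR adjusted p = 0.0002987). Tnfrsf21, the receptor DR6, lay between 41.5 and 52.3 CPM in the 6 libraries. Tnfrsf10b, the TRAIL receptor of mice with a death domain, lay between 4.09 and 13.8 CPM. Neither passed the test.

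Among the receptors that bind TRAF adaptors, Cd27 had 121 and 136 CPM in D/N440K, 174 and 149 in +/N440K, and 229 and 201 CPM in +/+. The 3 groups did not overlap. Cd27 was 1.67-fold lower in D/N440K than in +/+ (log2 fold change -0.74, SE 0.12, edgeR adjusted p = 1.792e-05) and 1.32-fold lower in +/N440K (-0.40, SE 0.12, edgeR adjusted p = 0.01978), where the call was lost with DESeq2 (adjusted p = 0.3687), without +/+ replicate 1 (edgeR adjusted p = 0.2545) and without +/N440K replicate 2 (0.1986). Tnfrsf9, which encodes 4-1BB, a receptor induced on activated T and NK cells, had 124 and 115 CPM in D/N440K, 88.1 and 98.7 in +/N440K, and 60.4 and 52.3 CPM in +/+. It followed the opposite order, again with no overlap between the 3 groups. Tnfrsf9 was 2.14-fold higher in D/N440K (log2 fold change 1.10, SE 0.16, edgeR adjusted p = 1.366e-06) and 1.66-fold higher in +/N440K (0.73, SE 0.165, edgeR adjusted p = 0.001753). The +/N440K call was lost with DESeq2 (adjusted p = 0.1065) and without +/+ replicate 2 (edgeR adjusted p = 0.07268).

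Ltbr, the receptor of lymphotoxin and LIGHT, had 22.3 and 13.2 CPM in D/N440K, 10.6 and 9.87 in +/N440K, and 5.12 and 4.98 CPM in +/+. The groups did not overlap, and Ltbr was 3.53-fold higher in D/N440K than in +/+ (log2 fold change 1.82, SE 0.47, edgeR adjusted p = 0.005086), a call lost with DESeq2 (adjusted p = 0.1835), without +/+ replicate 2 (edgeR adjusted p = 0.05845) and without D/N440K replicate 1 (0.2548). Tnfrsf11a, which encodes RANK, had 12.9 and 14.3 CPM in D/N440K, 4.90 and 5.92 in +/N440K, and 5.12 and 3.32 CPM in +/+. Only D/N440K stood above +/+, by 3.21-fold (log2 fold change 1.68, SE 0.53, edgeR adjusted p = 0.02505). This call was lost with DESeq2 (adjusted p = 0.398) and when any 1 of these 4 libraries was left out (edgeR adjusted p = 0.09215 to 0.2885). Tnfrsf13b, which encodes TACI, a receptor best known on B cells, had 24.0 and 25.5 CPM in D/N440K, 22.0 and 31.6 in +/N440K, and 53.2 and 35.7 CPM in +/+. Both mutant groups lay below +/+, but only D/N440K passed the test (log2 fold change -0.82, SE 0.26, edgeR adjusted p = 0.02907). Without +/+ replicate 1 the log2 fold change was -0.53 (edgeR adjusted p = 0.3971), and the call was also lost with DESeq2 (adjusted p = 0.3987) and without D/N440K replicate 1 or replicate 2 (edgeR adjusted p = 0.1694 and 0.08378).

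**Figure D3:**
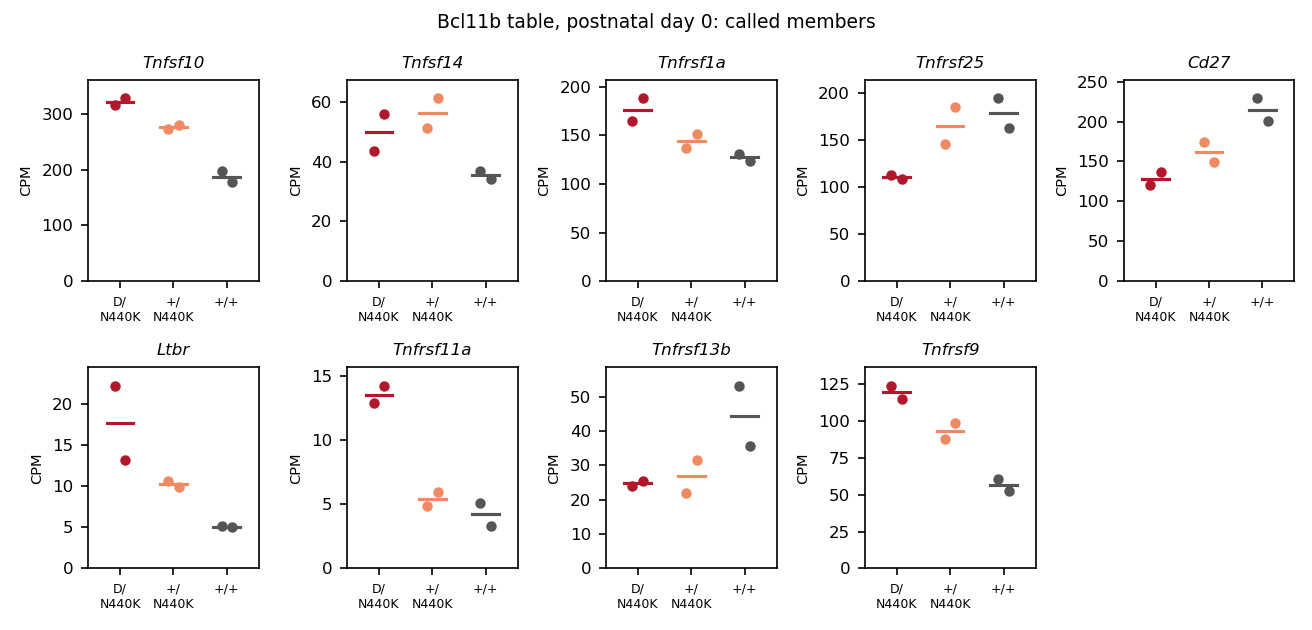
CPM of the 9 members called in at least 1 comparison of the Bcl11b table, with a point per library and a bar at the mean of the 2 libraries. Tnfsf10, Tnfrsf1a, Ltbr and Tnfrsf9 are highest in D/N440K and lowest in +/+, and Cd27 has the opposite order.

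The other TRAF-binding members did not pass the test at day 0. Tnfrsf1b lay between 216 and 249 CPM and Tnfrsf14 (HVEM) between 51.9 and 54.7 CPM in the 6 libraries, with log2 fold changes against +/+ of -0.06 and -0.0046 in D/N440K. Tnfrsf18 (GITR) lay between 11.3 and 26.9 CPM, Tnfrsf4 (OX40) between 4.94 and 12.2 CPM and Tnfrsf13c (BAFF receptor) between 4.15 and 12.3 CPM. Of the decoy or little-known receptors, Tnfrsf26 lay between 51.4 and 77.0 CPM and Tnfrsf22 between 6.11 and 16.8 CPM, and Tnfrsf23 was not tested. Tnfrsf23 and Tnfrsf26 share exon positions with the gene E230032D23Rik, Tnfsf9 with Gm11110 and Tnfrsf18 with Gm16008, each on the opposite strand, and since the strand of counting is not stated these reads cannot be told apart. Tnfsf12 overlaps with Tnfsfm13 and Cd27 with Mir8113 on the same strand, so reads in the shared part cannot be given to 1 gene by strand either.

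D/N440K and +/N440K were set against each other to ask what differs when the other allele is D rather than wild type. Tnfrsf25 was the 1 member called among 20, lower in D/N440K (log2 fold change -0.56, SE 0.14, edgeR adjusted p = 0.04135), and 0 were higher. Over all genes 0.284% were higher and 0.247% lower. At an unadjusted p under 0.05, 7 of the 20 members differed, and DESeq2 and limma-voom called 0. The Tnfrsf25 call was lost with those tools (adjusted p = 0.8805 and 0.06016) and without +/N440K replicate 2, D/N440K replicate 1 or D/N440K replicate 2 (edgeR adjusted p = 0.4362, 0.2007 and 0.2343). For Tnfsf10, Tnfrsf9 and Cd27, which were called in both mutants, the log2 difference between D/N440K and +/N440K was 0.22, 0.37 and -0.34 (edgeR adjusted p = 0.5167, 0.3842 and 0.3545).

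Markers of several lymphocyte types moved with these genotypes, and their part in the results above was not tested. Of 10 NK and ILC1 markers, 9 were tested and all 9 rose in D/N440K, with a summed level of 1663 to 1691 CPM in D/N440K, 1375 to 1436 in +/N440K and 580 to 708 CPM in +/+. Of 10 type 17 markers, all 8 tested fell in both mutants, to a sum of 327 to 402 CPM in D/N440K and 567 to 591 in +/N440K, against 1665 to 1967 CPM in +/+, and Il17a and Il22 were at 0 in both mutants. The 10 B-lineage markers, with Ms4a1 and Pax5 at 0 in the 3 groups and Ebf1 and Vpreb1 among those also at 0 in D/N440K, summed to 236 to 265 CPM in D/N440K, 331 to 339 in +/N440K and 442 to 443 CPM in +/+, and both that were tested, Ighm and Cd79b, fell in D/N440K. The 10 myeloid markers, with S100a9 and Elane at 0 throughout, summed to 317 to 319 CPM in D/N440K, 229 to 269 in +/N440K and 119 to 161 CPM in +/+, and 3 of 4 tested rose in D/N440K. The 8 markers of pre-TCR and double-positive thymocytes, of which all 6 tested fell in both mutants, summed to 44.5 to 68.2 CPM in D/N440K, 57.9 to 59.2 in +/N440K (Dntt at 0 in both) and 638 to 641 CPM in +/+. The 7 regulatory T-cell markers, of which 2 of 4 tested fell in D/N440K, summed to 362 to 431 CPM in D/N440K, 362 to 453 in +/N440K (Gpr83 at 0) and 743 to 760 CPM in +/+. The 10 ILC2 markers summed to 255 to 288 CPM in D/N440K, 357 to 398 in +/N440K and 401 to 419 CPM in +/+. Areg was at 0 in the 3 groups, Il5 in +/N440K and +/+, and Klrg1 in +/N440K. Of 7 ILC2 markers tested, 3 fell in D/N440K against +/+. The 12 markers of epithelium and stroma, with Foxn1 at 0 throughout, Col1a1 at 0 in D/N440K and Pdgfra at 0 in +/N440K and +/+, summed to 105 to 122 CPM in D/N440K, 109.6 to 138 in +/N440K and 154 to 159 CPM in +/+, and 1 of 4 tested fell in each mutant. The 10 dendritic and MHC II markers overlapped between the groups, at 769.5 to 777 CPM in D/N440K, 479 to 903 in +/N440K and 681 to 823 CPM in +/+ (Clec9a at 0 in +/N440K and +/+), with 1 of 8 tested higher and 1 lower in each mutant. The 10 markers of T cells and innate lymphocytes summed to 4031 to 4224 CPM in D/N440K, 4017 to 4241 in +/N440K and 3841 to 3960 CPM in +/+, with 2 higher and 4 lower in D/N440K and 2 higher and 5 lower in +/N440K. The 8 mast and basophil markers, 5 or 6 of them at 0 in each group, stayed at 13.2 CPM or less, and 0 were tested. Set against +/N440K, D/N440K had lower calls for 3 of 7 ILC2 and 3 of 8 type 17 markers tested. Lower calls also fell on 2 of 10 T-cell and innate lymphocyte, 1 of 2 B-lineage and 1 of 6 pre-TCR and double-positive markers. Higher calls fell on 1 of 9 NK and ILC1, 1 T-cell and innate lymphocyte and 1 pre-TCR and double-positive marker.

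At day 7, 15 of 23 members tested differed between Tcf7 F/F:Vav1-Cre and Tcf7 +/+: 12 rose (Tnf, Tnfsf8, Tnfsf14, Tnfsf15, Tnfrsf1a, Tnfrsf10b, Tnfrsf21, Tnfrsf25, Tnfrsf9, Tnfrsf11a, Tnfrsf18 and Ltbr) and 3 fell (Cd27, Tnfsf10 and Tnfrsf13c). Of all 12366 genes tested, 12.0% rose and 11.1% fell. The members' median log2 fold change was 0.79, against -0.00965 for all genes tested. Tnfrsf8, Tnfsf12, Tnfrsf23 and Tnfsf13b did not pass the filter on low counts. Without that filter Ltbr, Tnfrsf13c, Tnfrsf18 and Tnfsf15 lost their calls, and with DESeq2 Ltbr and Tnfsf15 lost theirs.

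The ligands divided, with Tnf, Tnfsf8, Tnfsf14 and Tnfsf15 higher and Tnfsf10 lower. Tnf had 114, 94.9 and 111 CPM in Tcf7 F/F:Vav1-Cre, against 33.8 and 25.4 CPM in Tcf7 +/+. The groups did not overlap, and Tnf was 3.59-fold higher (log2 fold change 1.84, SE 0.20, edgeR adjusted p = 2.997e-06). Tnfsf8, which encodes the CD30 ligand, had 85.7, 78.0 and 66.2 CPM in Tcf7 F/F:Vav1-Cre, against 20.9 and 24.8 CPM in Tcf7 +/+. It was 3.33-fold higher (log2 fold change 1.74, SE 0.22, edgeR adjusted p = 1.589e-05), while its receptor gene Tnfrsf8 lay between 1.69 and 6.20 CPM and was not tested. Tnfsf14 had 84.1, 69.5 and 68.4 CPM in Tcf7 F/F:Vav1-Cre, against 35.5 and 29.9 CPM in Tcf7 +/+. It was 2.25-fold higher, with no overlap (log2 fold change 1.17, SE 0.205, edgeR adjusted p = 0.0004357).

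Tnfsf10 had 157, 133 and 127 CPM in Tcf7 F/F:Vav1-Cre, against 187 and 247 CPM in Tcf7 +/+. All 3 lay below both +/+ libraries, and Tnfsf10 was 1.57-fold lower in Tcf7 F/F:Vav1-Cre (log2 fold change -0.65, SE 0.15, edgeR adjusted p = 0.005056). Tnfsf15, which encodes TL1A, the ligand of the Tnfrsf25 product, was scarce, at 4.04, 10.2 and 10.6 CPM in Tcf7 F/F:Vav1-Cre, against 2.25 and 3.38 CPM in Tcf7 +/+. Its log2 fold change of 1.59 (SE 0.55, edgeR adjusted p = 0.04316) lost its call without the filter (edgeR adjusted p = 0.1393), with DESeq2 (0.1699), with limma-voom (0.07974) and without either Tcf7 +/+ library (edgeR adjusted p = 0.1123 and 0.06481). Tnfsf9, the ligand of 4-1BB, did not pass the test, at 5.09 to 7.89 CPM, and Tnfsf12 and Tnfsf13b had 0.564 to 5.09 CPM per library.

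Among the members, all 4 death-domain receptors rose in Tcf7 F/F:Vav1-Cre, where 12.0% of all genes tested rose. Outside the naming rule, the death receptor gene Fas fell there (log2 fold change -2.29, edgeR adjusted p = 0.001342). Tnfrsf21 had 195, 194 and 208 CPM there, against 108 and 66.5 CPM in Tcf7 +/+ (2.28-fold, log2 fold change 1.19, SE 0.18, edgeR adjusted p = 0.0001057). Tnfrsf25 had 212, 233 and 224 CPM in Tcf7 F/F:Vav1-Cre, against 114 and 137 CPM in Tcf7 +/+ (1.78-fold, log2 fold change 0.83, SE 0.14, edgeR adjusted p = 0.0003285). In both, the 3 libraries of Tcf7 F/F:Vav1-Cre lay close together and above both +/+ libraries. Tnfrsf1a had 146, 149 and 147 CPM in Tcf7 F/F:Vav1-Cre, against 103 and 67.6 CPM in Tcf7 +/+ (log2 fold change 0.79, SE 0.17, edgeR adjusted p = 0.002786, and 0.53 without Tcf7 +/+ replicate 2, edgeR adjusted p = 0.01047). Tnfrsf10b had 16.98, 17.5 and 15.6 CPM in Tcf7 F/F:Vav1-Cre, against 6.20 and 5.07 CPM in Tcf7 +/+ (2.93-fold, log2 fold change 1.55, SE 0.35, edgeR adjusted p = 0.003591). Summed, the 4 receptors stood at 570, 593 and 595 CPM in Tcf7 F/F:Vav1-Cre, against 331 and 276 CPM in Tcf7 +/+.

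Cd27 had the lowest fold change of the members tested in this comparison, with 28.3, 27.1 and 25.0 CPM in Tcf7 F/F:Vav1-Cre, against 96.4 and 109 CPM in Tcf7 +/+. The groups did not overlap, and Cd27 was 3.84-fold lower (log2 fold change -1.94, SE 0.19, edgeR adjusted p = 8.28e-07). Tnfrsf11a had 71.2, 74.6 and 64.0 CPM in Tcf7 F/F:Vav1-Cre, against 20.3 and 13.0 CPM in Tcf7 +/+, 4.19-fold higher (log2 fold change 2.07, SE 0.24, edgeR adjusted p = 6.294e-06). Tnfrsf9 had 123, 98.9 and 117 CPM in Tcf7 F/F:Vav1-Cre, against 76.6 and 53.6 CPM in Tcf7 +/+ (log2 fold change 0.79, SE 0.18, edgeR adjusted p = 0.004559). RANK and 4-1BB transcripts were thus higher, with no overlap, where those of CD27 were lower.

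The size of 3 further calls in Tcf7 F/F:Vav1-Cre depended most on which Tcf7 +/+ library was used. Other calls varied too when 1 library was left out. Their log2 fold changes ranged from -0.84 to -0.44 for Tnfsf10, 0.55 to 1.07 for Tnfrsf9 and 0.88 to 1.58 for Tnfrsf21. Ltbr had 37.2, 32.8 and 52.3 CPM in Tcf7 F/F:Vav1-Cre, against 19.2 and 3.38 CPM in Tcf7 +/+ (log2 fold change 1.86, SE 0.41, edgeR adjusted p = 0.003116). That value was 3.58 without Tcf7 +/+ replicate 1 and 1.10 without replicate 2 (edgeR adjusted p = 2.469e-09 and 0.005701), and the call was lost without the filter (edgeR adjusted p = 0.08072) and with DESeq2 (0.1219). Tnfrsf18, a receptor abundant on regulatory T cells, had 42.9, 45.8 and 54.5 CPM in Tcf7 F/F:Vav1-Cre, against 32.1 and 18.0 CPM in Tcf7 +/+ (log2 fold change 0.93, SE 0.25, edgeR adjusted p = 0.01197). It was 1.41 without Tcf7 +/+ replicate 1 (edgeR adjusted p = 7.224e-05), and the call was lost without Tcf7 +/+ replicate 2 (0.58, edgeR adjusted p = 0.1094), without Tcf7 F/F:Vav1-Cre replicate 3 (edgeR adjusted p = 0.08085) and without the filter (edgeR adjusted p = 0.09328). Tnfrsf13c, a receptor of B-cell survival, had 4.85, 5.65 and 7.79 CPM in Tcf7 F/F:Vav1-Cre, against 27.6 and 10.7 CPM in Tcf7 +/+ (log2 fold change -1.61, SE 0.42, edgeR adjusted p = 0.008783). It was -0.77 without Tcf7 +/+ replicate 1 (edgeR adjusted p = 0.2496), and the call was also lost without the filter (edgeR adjusted p = 0.08345).

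**Figure D4:**
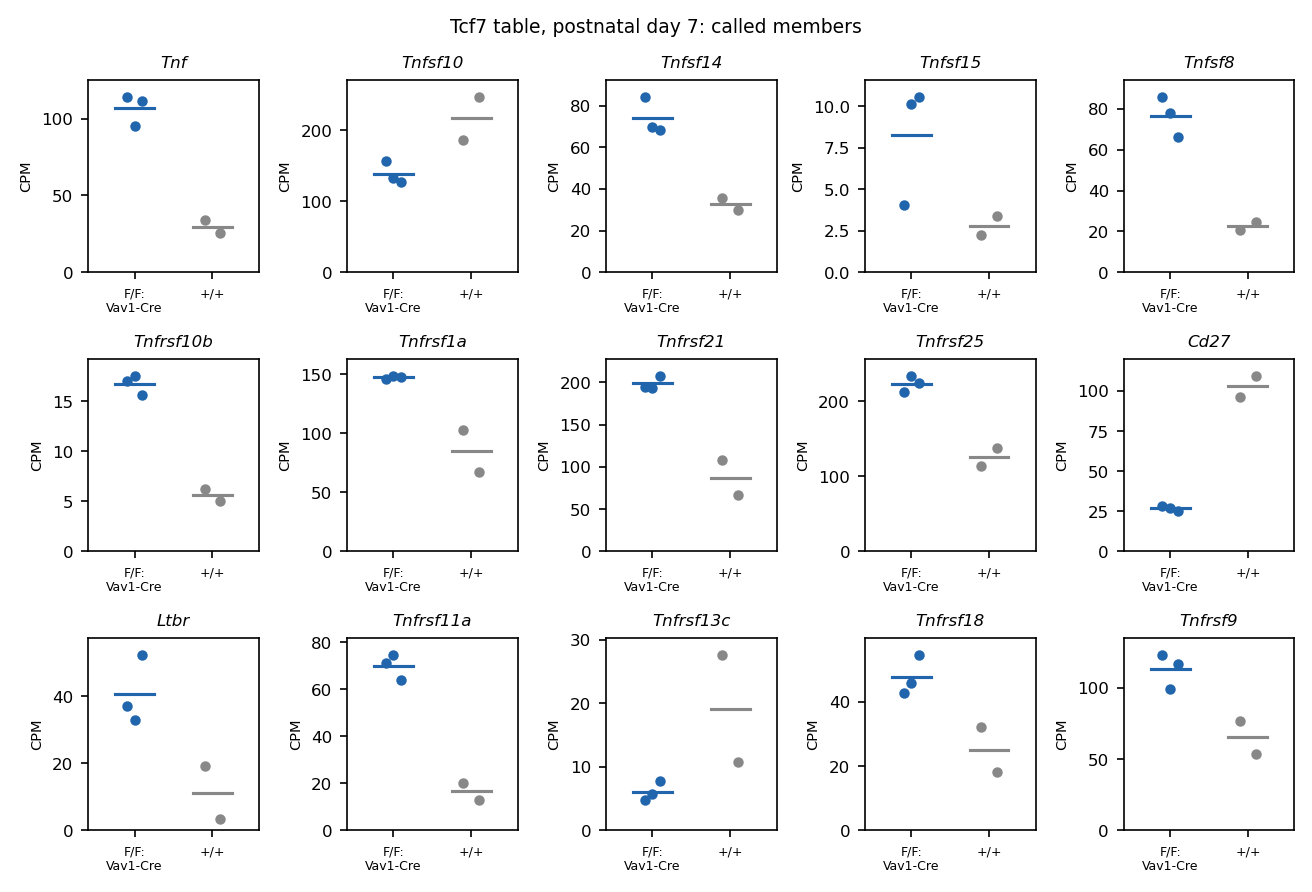
CPM of the 15 members called between Tcf7 F/F:Vav1-Cre (3 libraries) and Tcf7 +/+ (2 libraries), with a point per library and a bar at the group's mean. The groups do not overlap for any of the 15, and the +/+ points lie far apart for Ltbr and Tnfrsf13c.

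The 8 members without a call at day 7 included Tnfrsf1b, at 337, 350 and 376 CPM in Tcf7 F/F:Vav1-Cre, against 321 and 245 CPM in Tcf7 +/+ (log2 fold change 0.33, SE 0.14, edgeR adjusted p = 0.09408). Tnfrsf14 lay between 39.5 and 76.8 CPM per library, Tnfrsf13b between 48.5 and 69.9, Cd40 between 19.2 and 29.3, Tnfrsf4 between 7.33 and 16.3, Tnfrsf26 between 38.0 and 50.6 and Tnfrsf22 between 6.76 and 13.0 CPM. Cd40, the costimulatory receptor of B cells, dendritic cells and thymic epithelium, averaged 27.0 CPM in Tcf7 F/F:Vav1-Cre and 24.2 CPM in Tcf7 +/+. At day 0 it had 16 reads in all, with 12 in D/N440K, 4 in +/N440K and 0 in +/+, and was not tested there.

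Markers of other cell types differed between these groups as well, and their part in the results was not tested. Of 10 B-lineage markers, 9 were tested and 7 fell, Ms4a1 and Pax5 among them, and the list's sum was 375 to 408 CPM in Tcf7 F/F:Vav1-Cre, against 628 to 735 CPM in Tcf7 +/+, with Vpreb1 at 0 in both. Among the family's receptors of B cells, Tnfrsf13c fell, while Tnfrsf13b and Cd40 were not called (log2 fold changes -0.15 and 0.16, edgeR adjusted p = 0.637 and 0.6945). A link to the B-lineage markers was not tested. The 10 myeloid markers, with Elane at 0 in both groups, summed to 1075 to 1228 CPM in Tcf7 F/F:Vav1-Cre, against 406 to 691 CPM in Tcf7 +/+, and 5 of 7 tested rose, Csf1r, Lyz2 and Cd14 among them. The 8 mast and basophil markers summed to 75.1 to 108 CPM, against 22.0 to 24.8 CPM with Mcpt4 and Tpsb2 at 0 in Tcf7 +/+, and 4 of 5 tested rose. The 12 markers of epithelium and stroma summed to 410 to 438 CPM in Tcf7 F/F:Vav1-Cre (Pdgfra at 0), against 266 to 291 CPM in Tcf7 +/+. Of 6 tested, 2 rose and 1 fell. The 8 markers of pre-TCR and double-positive thymocytes summed to 447 to 450.4 CPM in Tcf7 F/F:Vav1-Cre (Rag2 and Dntt at 0), against 943 to 972 CPM in Tcf7 +/+, and of 7 tested 6 fell and 1 rose, with a median log2 fold change of -5.63. The 10 markers of T cells and innate lymphocytes summed to 2569 to 3049 CPM in Tcf7 F/F:Vav1-Cre, against 3090 to 3142 CPM in Tcf7 +/+, and 6 of 10 fell and 2 rose, with a median of -1.43. Any link of these or other lists to the fall of Cd27 was not tested. The dendritic list's sums overlapped, at 2495 to 2716 CPM against 1824 to 2547 CPM, though 3 of 9 tested rose and 0 fell. Other lymphoid lists moved too: type 17 markers summed to 2581 to 2820 CPM in Tcf7 F/F:Vav1-Cre (Il22 at 0), against 1588 to 1880 CPM in Tcf7 +/+, ILC2 markers to 1004 to 1116 CPM, against 522 to 672 CPM with Areg and Il5 at 0, regulatory T-cell markers to 663 to 780 CPM (Izumo1r at 0), against 398 to 546 CPM, and NK and ILC1 markers to 663 to 773 CPM (Klra1 at 0), against 838 to 1024 CPM. Of 9 type 17 markers tested, 5 rose and 2 fell, and of 7 ILC2 markers 5 rose and 0 fell. Of 6 regulatory T-cell markers tested, 3 rose and 1 fell, and of 9 NK and ILC1 markers 1 rose and 5 fell. Over all genes 12.0% rose and 11.1% fell.

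Whether the family responded differently in D/N440K than in Tcf7 F/F:Vav1-Cre was tested in 1 model over all 11 libraries, as the D/N440K effect minus the Tcf7 F/F:Vav1-Cre effect, each against its own +/+. Of 21 members tested, 5 differed: 2 with a positive and 3 with a negative difference, where 5.66% of all 12249 genes had a called positive and 5.83% a called negative one. The members' median difference was -0.38 on the log2 scale, and that of all genes 0.0198. The groups also differ in age, day 0 against day 7, and in table, which cannot be told apart from the genotype.

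Tnfsf10 rose in D/N440K and fell in Tcf7 F/F:Vav1-Cre, a log2 difference of 1.44 (SE 0.19, edgeR adjusted p = 5.142e-06), and Tnfrsf25 did the reverse (-1.51, SE 0.205, edgeR adjusted p = 7.336e-06). Cd27 fell in both, less in D/N440K (difference 1.20, SE 0.22, edgeR adjusted p = 0.0004185). Tnf and Tnfrsf21 had smaller fold changes in D/N440K than in Tcf7 F/F:Vav1-Cre, by -1.40 (SE 0.31, edgeR adjusted p = 0.002433) and -1.09 (SE 0.29, edgeR adjusted p = 0.01387). The Tnfrsf21 call was lost without Bcl11b +/+ replicate 1, Bcl11b +/+ replicate 2 or D/N440K replicate 1 (edgeR adjusted p = 0.07486, 0.06815 and 0.08051), and without Tcf7 +/+ replicate 1 the count of calls was 8. Ltbr, Tnfrsf11a, Tnfrsf1a and Tnfrsf9 rose in both, with differences of -0.03, -0.38, -0.32 and 0.31 that did not pass the test (SE 0.77, 0.57, 0.22 and 0.26).

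**Figure D5:**
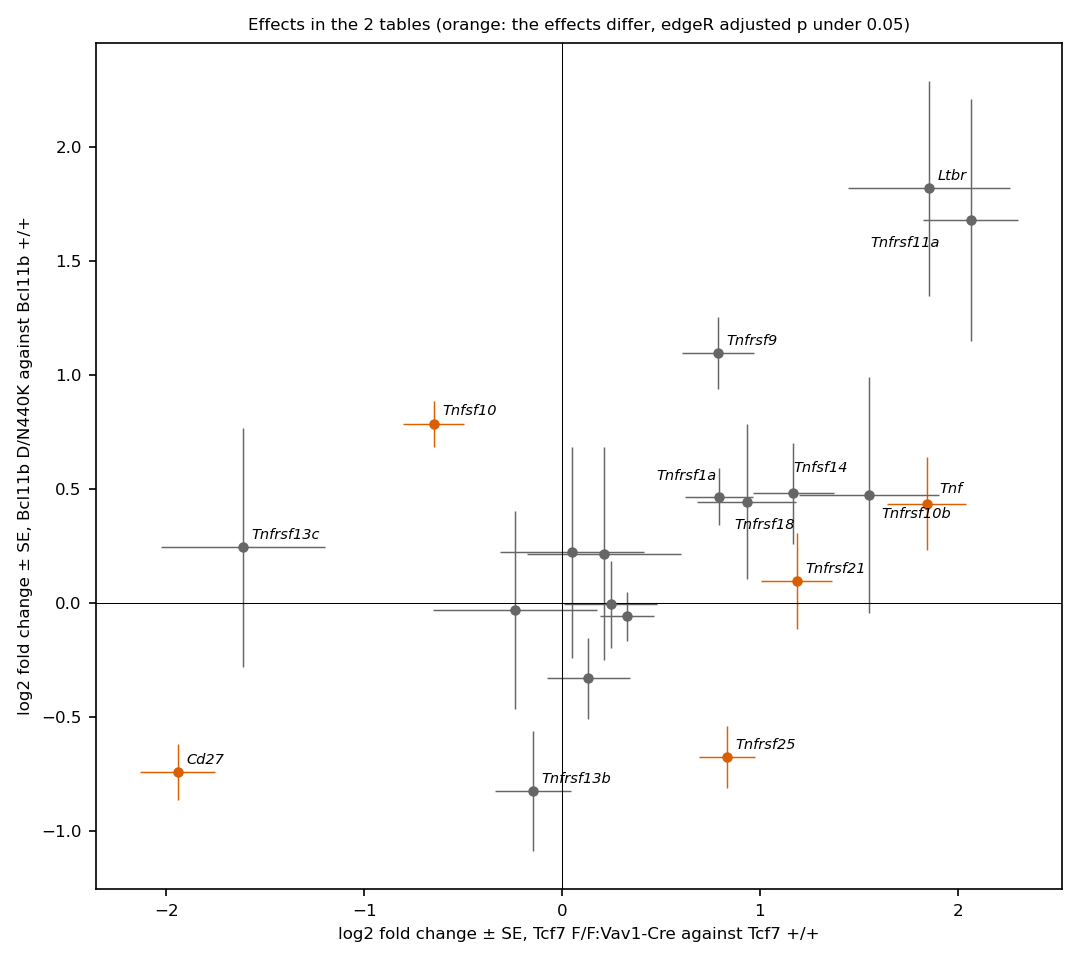
Log2 fold change ± SE of each member tested in both tables, for Tcf7 F/F:Vav1-Cre against Tcf7 +/+ (x axis) and Bcl11b D/N440K against Bcl11b +/+ (y axis). Orange marks the 5 members whose effects differ: Tnfsf10 lies upper left, Tnfrsf25 lower right, Cd27 lower left, and Tnf and Tnfrsf21 at the right, above 0.

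Genes around the family were read from 5 further lists. Of 10 family genes whose symbols fall outside the naming rule, 4 were tested at day 0. Lta, which encodes lymphotoxin alpha, a ligand of TNF receptors, was the 1 of the 4 that rose in D/N440K, where 6.10% of all genes did: it had 42.8 and 53.9 CPM in D/N440K, 40.0 and 26.7 in +/N440K, and 17.4 and 29.1 CPM in +/+ (log2 fold change in D/N440K 1.01, SE 0.26, edgeR adjusted p = 0.005776). At day 7, 3 of 7 tested rose and 2 fell, where 12.0% of all genes rose and 11.1% fell. Lta had 105, 120 and 124 CPM in Tcf7 F/F:Vav1-Cre, against 19.2 and 6.20 CPM in Tcf7 +/+ (log2 fold change 3.19, SE 0.29, edgeR adjusted p = 3.463e-07), a larger rise than any member's. Relt also rose (1.01, SE 0.21, edgeR adjusted p = 0.001839). Fas, the death receptor of FAS ligand, had 6.47, 1.70 and 2.23 CPM in Tcf7 F/F:Vav1-Cre, against 16.3 and 15.2 CPM in Tcf7 +/+ (log2 fold change -2.29, SE 0.46, edgeR adjusted p = 0.001342). Cd40lg, which encodes the ligand of CD40, had 0 counts in Tcf7 F/F:Vav1-Cre, against 41 in Tcf7 +/+, at least 18.5-fold lower when the whole group is set at a floor of 3 counts (edgeR adjusted p = 0.0001057). The difference between the 2 effects was called for Lta (-2.17, edgeR adjusted p = 0.001373) and for Ltb, which encodes lymphotoxin beta (-0.69, edgeR adjusted p = 0.04677).

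Of 21 receptor adaptors and proximal signalling genes, all tested in each comparison, 1 rose and 1 fell in D/N440K, 1 rose and 1 fell in +/N440K, and 2 rose and 2 fell in Tcf7 F/F:Vav1-Cre. In each direction that was no larger a share than among all genes, of which 6.10% rose and 6.31% fell in D/N440K, 4.79% rose and 5.30% fell in +/N440K, and 12.0% rose and 11.1% fell in Tcf7 F/F:Vav1-Cre. Traf1, an adaptor that NF-kB induces, had 119 and 130 CPM in D/N440K, 102 and 130 in +/N440K, and 51.2 and 54.8 CPM in +/+ (log2 fold changes 1.22, SE 0.16, and 1.11, SE 0.165, edgeR adjusted p = 3.004e-07 and 3.235e-06). Traf4 was the one that fell, with log2 fold changes of -0.65 in D/N440K, -0.82 in +/N440K and -0.66 in Tcf7 F/F:Vav1-Cre (edgeR adjusted p = 0.001946, 0.0001754 and 0.04332). In Tcf7 F/F:Vav1-Cre Map3k14, the NF-kB-inducing kinase NIK, rose (log2 fold change 1.11, SE 0.17, edgeR adjusted p = 0.0001296), as did Tab2 (0.55, edgeR adjusted p = 0.007449), and Traf5 fell (-1.11, SE 0.21, edgeR adjusted p = 0.0006792). For Map3k14, Traf5 and Traf1 the difference of effects was called too (-1.17, 1.59 and 0.935, edgeR adjusted p = 0.001712, 0.0003962 and 0.01738).

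Of 8 NF-kB subunits and IKK genes, Nfkb2 and Nfkb1 rose in D/N440K (log2 fold changes 0.50 and 0.28, edgeR adjusted p = 0.001907 and 0.02738), Rel rose in +/N440K (0.44, edgeR adjusted p = 0.02118), and Nfkb1, Nfkb2 and Relb rose in Tcf7 F/F:Vav1-Cre (0.66, 0.56 and 0.63, edgeR adjusted p = 0.00036, 0.01379 and 0.01848). None of the 8 passed the edgeR test downwards in these 3 comparisons, and the list's median was 0.26, 0.19 and 0.38 in that order. These are 2, 1 and 3 of 8 genes, beside 6.10%, 4.79% and 12.0% of all genes that rose. Of 12 NF-kB inhibitors and feedback genes, 1 rose in +/N440K (Nfkbid, 0.55, edgeR adjusted p = 0.01323), and 2 rose in Tcf7 F/F:Vav1-Cre (Tnip1, 0.48, and Nfkbie, 0.54, edgeR adjusted p = 0.01946 and 0.02448), beside 4.79% and 12.0% of all genes. The difference of effects was called for Tnip1 (-0.58, edgeR adjusted p = 0.03925). The sheddases Adam10 and Adam17, which release TNF-family proteins from the cell surface, did not pass the test, Adam10 with log2 fold changes of 0.20 in D/N440K and -0.36 in Tcf7 F/F:Vav1-Cre (edgeR adjusted p = 0.3932 and 0.1595) and Adam17 with 0.10 and 0.15 (0.7013 and 0.4569). Between D/N440K and +/N440K the medians of the 5 lists lay between 0.01 and 0.23 on the log2 scale.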

How the data were processed

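Bulk RNA was measured in 11 libraries of sorted mouse thymocytes with a modified RamDA-seq, a whole-transcript method for total RNA, per the labels' protocols. The authors deposited raw read counts per gene, in a Bcl11b and a Tcf7 table. Per the submitters' processing notes, the tools were HTSeq 0.11.2, Picard 2.21.1, STAR 2.7.3a, fastp 0.20.0, SAMtools 1.9 and edgeR, and the build was mm10 (GRCm38). The annotation release and the strand setting of the counting are not given in the sources used here, and the authors' normalized tables were not used. Depth was 999381 to 1842717 counts per library. PCR without molecular identifiers was used, so counting limits cover counting error only.

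From the counts, each table was tested with edgeR 4.0.16 (R 4.3.3): filterByExpr with a minimum count of 10, TMM scaling and the quasi-likelihood test without a replicate block, with Benjamini-Hochberg adjustment over all genes tested and a two-sided threshold of 0.05. The filter left 10910 genes (Bcl11b) and 12366 (Tcf7), and each table had 3 residual degrees of freedom. The difference between the D/N440K effect and that of Tcf7 F/F:Vav1-Cre came from 1 model over the 11 libraries (12249 genes). A standard error is the absolute log2 fold change before edgeR's prior count, divided by the square root of F. The log2 fold changes given include that prior count, which shrinks them slightly. Identifiers were named from GENCODE M21, and exon lengths for RPKM came from it. A count of 0 in a library allows up to 3 counts, which is 1.67 to 3.07 CPM. Scripts were tested on simulated data.

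Members with the smallest p-values were given sequences, and members that passed a test were given values for every library. Of the 5 pathway lists, called genes were named, at most 4 per list and comparison, in order of p. Of the 11 marker lists, each is given by its summed level, its count of calls and its genes at 0, and a called gene is named in some cases only. The members and lists were chosen with earlier results of these data known. Same-numbered replicates of different groups did not deviate together (correlations of their deviations from -0.0326 to 0.00965), so the numbers pair no samples. Alternatives were DESeq2 1.42.0, limma-voom (limma 3.58.1), no filter, a filter of CPM 5 in 2 libraries, calls with 1 or more log2 units of change in either direction, a replicate block, member minimums of 10 and 50 reads, and leaving out each library. One marker gene is not reported here.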

Additional observations from a re-analysis of the deposited data

Results flagged for a closer look

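For 5 members, the effect of D/N440K against Bcl11b +/+ differed from that of Tcf7 F/F:Vav1-Cre against Tcf7 +/+, by a test of the difference itself in the model over 11 libraries. For Tnfsf10, the gene of TRAIL, the difference was 1.436 on the log2 scale, with effects of opposite sign, and for Tnfrsf25, the gene of DR3, it was -1.512, with the signs the other way round. For Cd27 it was 1.201, with a fall in both comparisons. For Tnf and Tnfrsf21 it was -1.404 and -1.087, with a rise called in Tcf7 F/F:Vav1-Cre but not in D/N440K. Age and table differ together with the genotypes, so they cannot be told apart.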

How the results depend on the processing

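Of 33 member calls under 414 alternative values, 367 kept their side of the threshold with the same direction, 47 lost the call and 0 changed direction, and 20 calls were kept under every alternative run. The number of members called in +/N440K against +/+ was 4, with 1 by DESeq2 and 0 when 1 or more log2 units of change were also required (5 of 20 members at an unadjusted p under 0.05 by edgeR). In D/N440K against +/+ it was 8, with 4 by DESeq2 and 3 with that requirement. In D/N440K against +/N440K it was 1, with 0 by DESeq2, by limma-voom, with the replicate block and with that requirement (7 members at an unadjusted p under 0.05 by edgeR). With each library left out in turn there were 2 to 4 members in +/N440K (2 without +/+ replicate 1), 5 to 6 in D/N440K against +/+ (5 without +/+ replicate 2, D/N440K replicate 1 or D/N440K replicate 2), 0 to 1 in D/N440K against +/N440K, 13 to 15 for Tcf7 F/F:Vav1-Cre, and 4 to 8 in the difference of effects (8 without Tcf7 +/+ replicate 1). With the replicate block the counts were otherwise 4, 8, 14 and 5. The block ended the call of Tnfrsf25 between D/N440K and +/N440K (edgeR adjusted p = 0.1022) and that of Tnfsf15 in Tcf7 F/F:Vav1-Cre (0.165).

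Over all genes, calls higher and lower were 523 and 578 in +/N440K, 665 and 688 in D/N440K, 31 and 27 between D/N440K and +/N440K, 1487 and 1376 for Tcf7 F/F:Vav1-Cre, and 693 and 714 for the difference. DESeq2 gave 173 and 184, 269 and 259, 1 and 3, and, for the difference, 394 and 504. Requiring 1 or more log2 units of change left 141 and 294, 247 and 347, 11 and 10, 821 and 581, and 441 and 536. Without the filter there were 49 and 42 between D/N440K and +/N440K, and 891 and 715 for Tcf7 F/F:Vav1-Cre. Without Tcf7 +/+ replicate 1 there were 2289 and 2323 for Tcf7 F/F:Vav1-Cre, and 1266 and 1376 for the difference. A member minimum of 10 reads added Cd40 to the difference, 6 in all. The cause of these changes was not tested. Tnfsf12, Tnfrsf23, Tnfrsf8 and Tnfsf13b had too few reads for the filter in the Tcf7 table, and Tnfsf8, Tnfsf12 and Tnfrsf23 in the Bcl11b table, so differences in them were not tested.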

Other observations

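Among the 35 genes, 8 stayed under 20 reads in both tables. Tnfrsf11b, which encodes the decoy receptor osteoprotegerin, and Tnfrsf17, a plasma-cell receptor, had 0 reads in all 11 libraries, and 3 reads over a table correspond to 0.457 CPM for Bcl11b libraries and 0.359 CPM for Tcf7 libraries. Cd70, the ligand of CD27, had 0 reads at day 0 and 4 at day 7, and Tnfsf4, the ligand of OX40, had 0 and 14. Tnfsf18, the ligand of GITR, had 0 and 6. Thus the receptor genes Cd27, Tnfrsf4 and Tnfrsf18 were members, while the genes of their ligands had few or no reads.

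Several members lie next to each other in the genome (GENCODE M21, GRCm38). Cd27 and Ltbr on chromosome 6 are 69.6 kb apart, and Ltbr and Tnfrsf1a 35.5 kb apart, and in D/N440K Cd27 fell where both neighbours rose, as also in Tcf7 F/F:Vav1-Cre. Tnfsf15 and Tnfsf8 on chromosome 4 are 86.2 kb apart, and both rose in Tcf7 F/F:Vav1-Cre. Tnfrsf4 and Tnfrsf18 are 9.55 kb apart, and Tnfrsf18 was called in Tcf7 F/F:Vav1-Cre while Tnfrsf4 had a log2 fold change of 0.05 there. The related genes Tnfrsf26, Tnfrsf22 and Tnfrsf23 are 6.08 and 16.1 kb apart, and as close relatives their counts are uncertain. Of the 35 genes, 9 lie on chromosome 4 and 6 on chromosome 17.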
